A study of Mus musculus with 29 samples.

Results

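Colon tissue of mice that had gone through 3 cycles of dextran sodium sulphate (DSS), a polymer that injures the colonic epithelium, was compared with colon tissue of untreated control mice. The comparison takes every array whose label names 3 cycles of DSS (5 mice, labelled F1, F3, F5, G2 and G3) and every array labelled control (5 mice, A1, A2, A5, L1 and L2), that is 10 of the 29 arrays analysed. All mice were female C57BL6J. The labels give an age of 6 weeks, which the methods state for the mice as obtained, and at sacrifice, when they were older, all groups were matched in age. A cycle was 7 days of DSS in the drinking water and then 2 weeks of normal water. The treated mice were therefore sampled 2 weeks after their last DSS, whereas the controls had received normal water throughout. RNA came from a frozen piece of the most infiltrated colon and was hybridised to Affymetrix Mouse Gene ST arrays, 1 mouse per array. Values are log2 expression per probe set, a group of short probes for 1 transcript, so that a difference of 1 is a 2-fold change. Since whole tissue was measured, fewer cells of a type and less RNA per cell cannot be told apart.

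DSS strips the epithelial barrier and exposes the underlying tissue to gut bacteria. The wound then draws in myeloid cells and lymphocytes, and interferon gamma from lymphocytes switches on chemokines, guanylate-binding proteins and the molecules that present antigen. During repair the epithelium secretes antibacterial proteins, plasma cells deliver IgA across it, and stromal cells lay down matrix, which after repeated injury may become fibrosis.

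The array medians lay between 6.02 and 6.14 over all 29 arrays. Pairs of arrays correlated across probe sets at 0.979 to 0.988 within the 3 cycles group and at 0.983 to 0.992 within controls. The tissue kept the colonic markers at high levels in both groups: Muc2, the main secreted mucin, averaged 13.31 ± 0.11 after 3 cycles and 13.19 ± 0.32 in controls (SD, n = 5 each), Krt8, a simple epithelial keratin, 13.32 ± 0.07 and 13.28 ± 0.04, and Car1, a carbonic anhydrase of colonocytes, 12.71 ± 0.63 and 12.88 ± 0.15. Of the markers for tissue that colon should lack, 0 of 16 skeletal muscle, 0 of 12 adipose, 0 of 9 exocrine pancreas and 0 of 11 small intestine genes was called as different between the groups. Of all genes, 1.09% were called higher and 0.291% lower. Such counts cannot show that a tissue was absent, since it may be present in both groups or in single mice. The mean of the adipose list lay between 6.27 in F3 and 7.36 in A1. One property of the arrays ran along with the treatment. A probe set with no gene listed, 10598085, read 11.88, 11.69, 11.70, 11.39 and 11.31 in F1, F3, F5, G2 and G3, against 7.97, 8.14, 7.94, 7.59 and 7.26 in A1, A2, A5, L1 and L2. Over all groups it parted 15 arrays with values of at least 11.09, among them all of 3 cycles and recovery, from 14 arrays of at most 8.14, among them all of control and 1 cycle. Acute colitis and 2 cycles held arrays of both kinds, so the 2 array sets could be added to the model as a term. The term rests on these 2 groups alone. Within 2 cycles the sets coincide with the label letters, D low and E high. Another difference between those mice therefore cannot be told apart from the array sets there. Of the 129 named genes followed through that fit, called or not without the term, 63 lost their call and 1 gained one. Such changes are given below, with the value in that fit, for the lists and for the genes that lead them. What the array sets are was not tested, and no label names them.

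By limma, with Benjamini-Hochberg adjustment over all probe sets, an adjusted p under 0.05 and a change above 2-fold, 363 of 35511 probe sets were higher after 3 cycles (1.02%) and 212 were lower (0.597%). Without G3 the counts were 293 and 137. The rises were mostly annotated: 239 probe sets carried 1 gene symbol, for 220 genes, 84 carried none and 40 several. Among the falls only 66 carried 1 symbol, for 59 genes, while 142 carried none and 4 several. With the array sets in the model the median standard error of a log2 change widened to 0.15, against 0.10 without them. In that fit 48 of the 239 rises and 20 of the 66 falls were still called, yet 237 of the 239 stayed positive and all 66 stayed negative. The median change of those rises was 1.25 with the array sets and 1.32 without, and that of the falls -1.33 and -1.26. Of the 142 falls with no gene listed, 5 were still called, and their median was -0.84 with the array sets and -1.14 without. Many of these 142 hold identical values, with means of 5.28 after 3 cycles and 6.42 in controls, so they are not independent. Both medians equal the change of these copies, and the counts of falls include each copy. Between the array sets themselves 17 of the 142 were called, against 33 higher and 31 lower in the high set over all 35511. With probe sets averaging under 6 left out, 92 falls were called. Taking the brightest probe set of each of 19938 genes, 218 genes were higher (1.09%) and 58 lower (0.291%), and with the array sets 54 higher (0.271%) and 25 lower (0.125%). Each list count below is to be read against these shares, and a short list with no calls is near them.

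**Figure D1:**
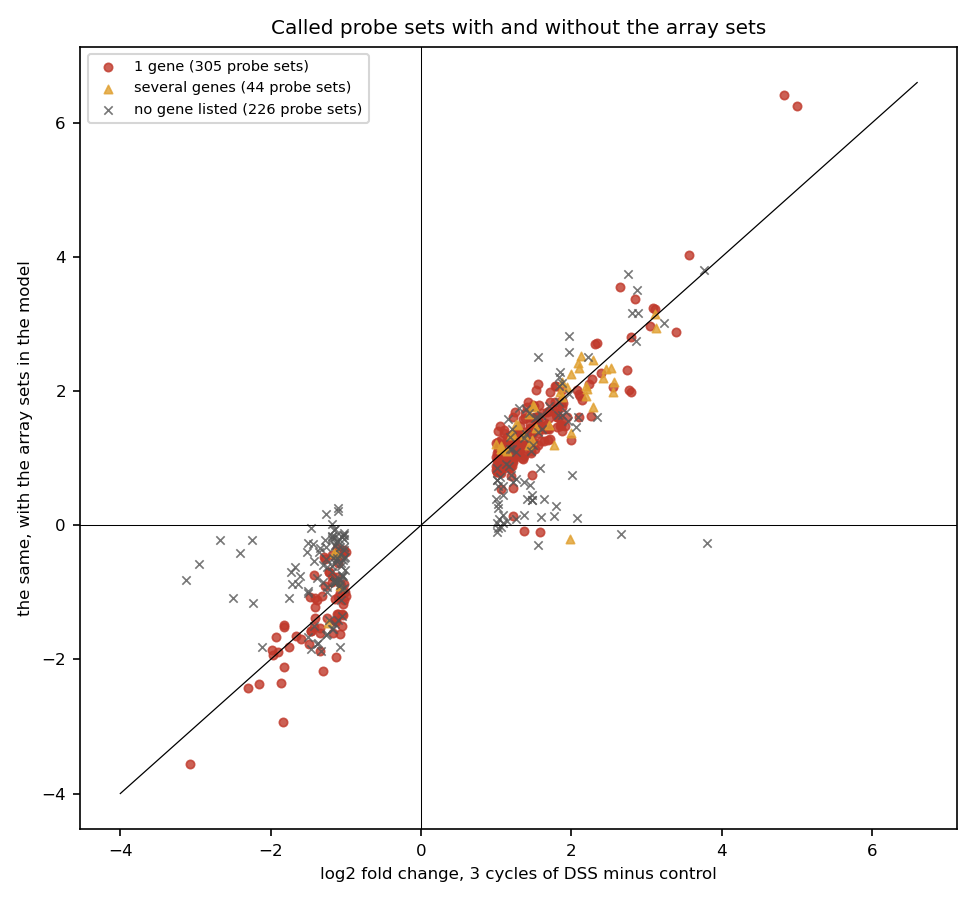
Log2 fold change of every called probe set in 3 cycles minus control (horizontal) and with the array sets in the model (vertical), by annotation, with the line of equal values. Of 305 probe sets with 1 gene, 272 lie within 0.5 of the line (AY036118 and Usp17ld do not), against 126 of 226 with no gene listed. Many of those 226 are copies with identical values. Probe set 10598085, with 3.81 and -0.27, is far from the line because it defines the array sets.

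Antibacterial genes of the epithelium showed the highest rises. Reg3g, an antibacterial lectin, read 10.27, 9.02, 9.23, 9.56 and 8.71 in F1, F3, F5, G2 and G3, against 3.45, 5.25, 4.30, 4.43 and 4.38 in A1, A2, A5, L1 and L2. The lowest treated mouse was thus far above the highest control, and the change was 5.0 ± 0.73 (log2, SE; limma adjusted p = 8.13e-05), or 31.9-fold. Its paralog Reg3b changed by 4.83 ± 0.79 (adjusted p = 0.000245), whereas Reg3a, another paralog, changed by 0.10. For both genes F1 was the highest array and G3 the lowest of the treated mice. Clca4b, a member of the family of calcium-activated chloride channel regulators, averaged 10.26 ± 1.14 after 3 cycles and 6.69 ± 0.45 in controls, a change of 3.56 ± 0.52 (adjusted p = 8.55e-05). Here G2 and G3 led, with 11.49 and 11.29. Among the 20 largest rises of genes with separate groups, immunoglobulins aside, Plet1, an epithelial surface protein, rose by 2.27 ± 0.48 (adjusted p = 0.00228) from controls that differed widely, 5.70 in A1 and 9.06 to 10.14 in the others, and Mfsd2a, a lipid transporter, by 1.88 ± 0.29 (adjusted p = 0.000159). Khdc1a rose by 2.80 ± 0.58 (adjusted p = 0.00177), with F1 at 4.27 and the other treated mice at 6.22 to 7.60. Plet1 (2.18) and Khdc1a (1.99) were no longer called with the array sets.

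Of 25 antimicrobial genes measured, 13 were higher and 0 lower, against 1.09% and 0.291% of all genes, and their median change was 1.35, against 0.02 over all genes. Nos2, the inducible nitric oxide synthase, read 6.93, 7.81, 7.19, 8.10 and 9.26 after 3 cycles and 5.34, 5.81, 5.45, 5.24 and 5.42 in controls, and changed by 2.40 ± 0.44 (adjusted p = 0.0007). The groups did not overlap, and G3 was the highest mouse. It was at 2.27 and not called with the array sets. Pla2g2a, a secreted phospholipase that kills bacteria but whose protein C57BL/6 mice lack through a frameshift, still had more RNA, by 2.26 ± 0.29 (adjusted p = 1.57e-05). Duoxa2 and Duox2, which together make hydrogen peroxide at the apical membrane, rose by 1.87 ± 0.24 and 1.45 ± 0.18 (adjusted p = 1.63e-05 and 9.79e-06), and both were still called with the array sets, as were Reg3g, Reg3b and Pla2g2a among the 6 members called in that fit. Retnlb, an antibacterial protein of goblet cells, rose by 2.84 ± 0.69 (adjusted p = 0.00592), but its groups overlapped, because controls alone ranged between 3.52 and 8.51. Saa3, an acute-phase protein, rested in part on 1 mouse: G3 read 8.71 and the other treated mice 5.95 to 6.94, and its rise of 1.55 ± 0.49 (adjusted p = 0.0282) was not called without G3 (1.07), A1 or A5. Retnlb (3.37) and Saa3 (2.11) were not called with the array sets either. Members that did not pass included Lcn2, which sequesters bacterial iron carriers, with 1.35, and Ang4 with 0.43.

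**Figure D2:**
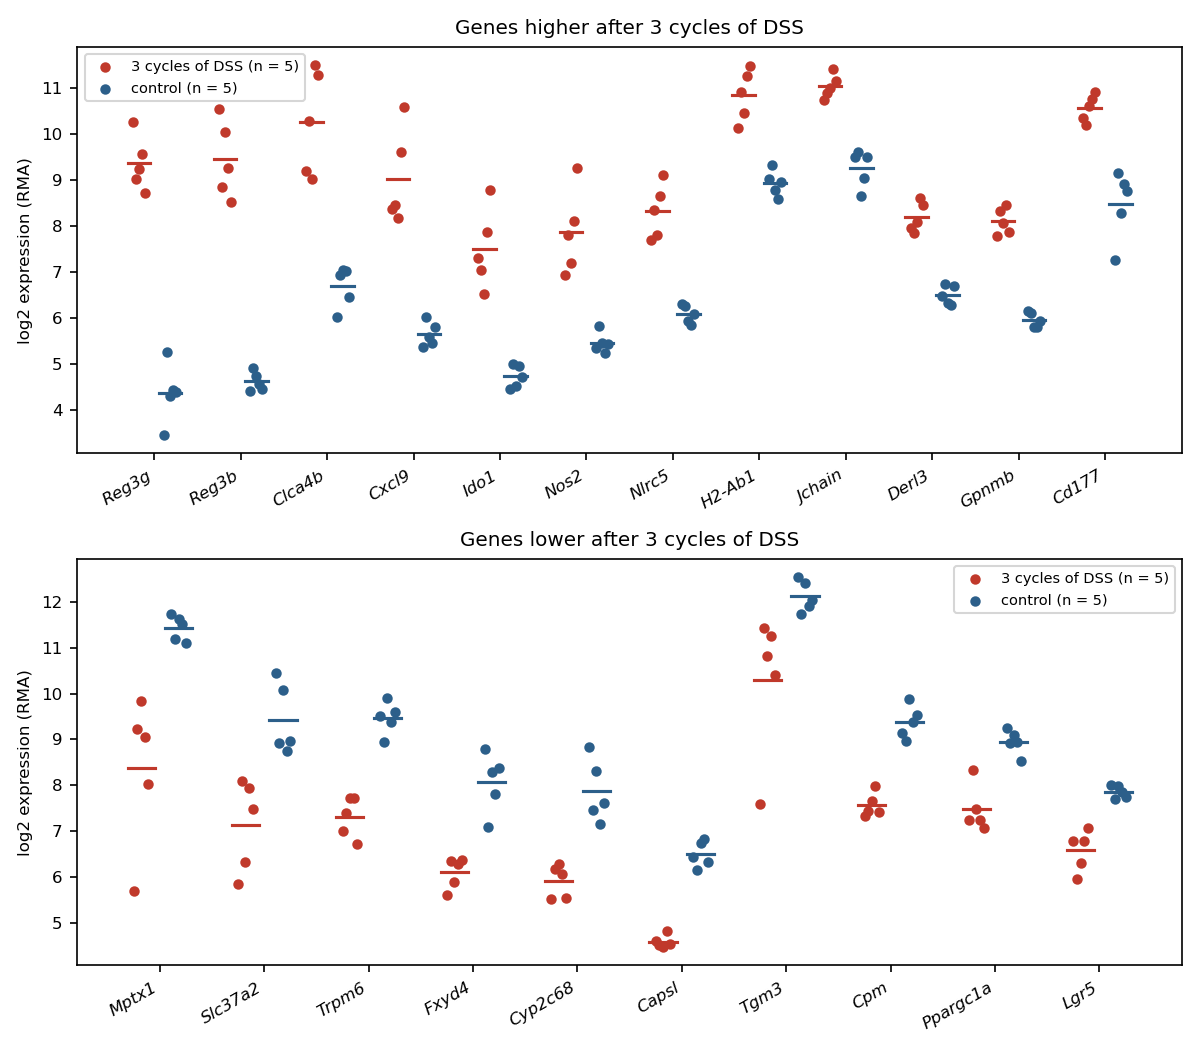
Log2 expression in each mouse (points) with the group mean (bars) for 12 genes that were higher and 10 that were lower after 3 cycles of DSS, with 3 cycles left of control for each gene (n = 5 each). The groups do not overlap for any gene shown, and F1 lies apart for Mptx1 (5.68) and Tgm3 (7.59).

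The interferon gamma response was higher as a block. Of 25 genes measured, 14 were higher and 0 lower, all 25 had positive changes, and the median was 1.02. Cxcl9, a chemokine for T cells, read 8.36, 8.45, 8.16, 9.60 and 10.58 in F1, F3, F5, G2 and G3, against 5.37, 6.02, 5.59, 5.44 and 5.79 in controls. G3 had the highest value and the groups were far apart, with a change of 3.39 ± 0.49 (adjusted p = 7.72e-05), or 10.5-fold. Ido1, which degrades tryptophan, changed by 2.77 ± 0.48 (adjusted p = 0.000375). Smaller rises came from Iigp1, a GTPase that attacks the vacuoles of intracellular pathogens (2.08 ± 0.44), from Tap1, the peptide transporter of MHC class I (1.71 ± 0.30), from Zbp1, a nucleic acid sensor (1.70 ± 0.25), and from Psmb8, an immunoproteasome subunit (1.52 ± 0.27), each with an adjusted p of at most 0.002. Cxcl10 depended on G3, which read 8.49, against 6.24 to 6.76 in the other treated mice and 5.07 to 5.66 in controls. Its change was 1.49 ± 0.50 (adjusted p = 0.0402), and it was not called when G3 (1.08), G2 or any 1 of the controls was left out. The list counted 9 genes higher when G3 was left out. None of the 25 was called with the array sets (0), although all 25 stayed positive, with a median of 0.92, Cxcl9 being at 2.88 and Ido1 at 2.01.

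Nlrc5, the transactivator of MHC class I genes, had several probe sets on the array. The one with the strongest rise read 7.70, 8.35, 7.80, 8.65 and 9.10 in F1, F3, F5, G2 and G3, against 6.30, 6.25, 5.92, 5.85 and 6.09 in A1, A2, A5, L1 and L2. That is a change of 2.24 ± 0.26 (adjusted p = 4.94e-06), which was also called with the array sets (2.11 ± 0.38). The other 18 probe sets all had positive changes, of 0.48 to 1.81, so the size of the rise differed along the gene.

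MHC class II genes, whose products present peptides to CD4 T cells, rose nearly in full: 8 of 9 measured genes were higher, 0 lower, and the median was 1.64. H2-Aa, the alpha chain of I-A, read 9.65, 10.54, 9.97, 10.93 and 11.14 after 3 cycles and 8.69, 9.02, 8.39, 8.10 and 8.69 in controls. Every treated mouse exceeded every control, and the change was 1.87 ± 0.31 (adjusted p = 0.000299). H2-Eb1, the beta chain of I-E, rose by 1.64 ± 0.25 (adjusted p = 0.000132), and H2-DMa, which helps load the peptide, by 1.86 ± 0.32 (adjusted p = 0.000444). Ciita, the coactivator that these genes need, rose by 1.24 ± 0.23 (adjusted p = 0.000782). In all of these genes F1 was the lowest treated mouse, and G2 and G3 were the highest. The count stayed at 8 whichever array was left out, while with the array sets 0 were called and the median was 1.48.

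Promoters of genes from both groups are shown because their members moved together, as RefSeq gives them on GRCm38.p6, from 250 bases before the start of the gene to 50 bases after it. Capitals mark matches, on either strand, to 3 motifs: CTGATTGG, a Y box of the kind known from MHC class II promoters, GAAANNGAA, the core of an interferon response element, and TTCNNNGAA, the gamma-activated element bound by STAT proteins. H2-Aa (chr17:34287774-34288073, minus strand) and H2-Eb1 (chr17:34305617-34305916, plus strand) each hold a Y box, which begins 51 and 62 bases before the start. Cxcl9 (chr5:92328030-92328329, minus strand) holds an interferon response core at 175 bases and a Y box at 65 bases before the start, and its neighbour Cxcl10 (chr5:92348840-92349139, minus strand) has the same pair at 213 and 54 bases. Gbp5 (chr3:142496684-142496983, plus strand), which encodes a guanylate-binding protein, has gamma-activated elements at 245 and 52 bases and an interferon response core at 164 bases.
H2-Aa: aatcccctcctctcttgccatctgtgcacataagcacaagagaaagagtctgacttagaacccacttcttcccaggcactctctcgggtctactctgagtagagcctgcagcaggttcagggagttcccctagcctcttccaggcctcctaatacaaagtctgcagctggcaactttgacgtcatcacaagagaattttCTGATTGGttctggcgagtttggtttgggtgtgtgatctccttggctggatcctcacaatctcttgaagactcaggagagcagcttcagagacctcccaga
H2-Eb1: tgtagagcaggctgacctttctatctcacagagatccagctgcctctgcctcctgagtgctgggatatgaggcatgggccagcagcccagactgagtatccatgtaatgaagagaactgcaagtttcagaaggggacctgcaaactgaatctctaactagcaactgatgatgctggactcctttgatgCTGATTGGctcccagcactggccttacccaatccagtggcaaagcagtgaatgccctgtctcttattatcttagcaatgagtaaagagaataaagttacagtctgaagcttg
Cxcl9: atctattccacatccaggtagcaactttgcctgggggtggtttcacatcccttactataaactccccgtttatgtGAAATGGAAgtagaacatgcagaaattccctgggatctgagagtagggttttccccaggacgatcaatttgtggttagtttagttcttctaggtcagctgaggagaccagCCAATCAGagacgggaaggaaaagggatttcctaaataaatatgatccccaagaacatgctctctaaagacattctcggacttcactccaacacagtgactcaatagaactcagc
Cxcl10: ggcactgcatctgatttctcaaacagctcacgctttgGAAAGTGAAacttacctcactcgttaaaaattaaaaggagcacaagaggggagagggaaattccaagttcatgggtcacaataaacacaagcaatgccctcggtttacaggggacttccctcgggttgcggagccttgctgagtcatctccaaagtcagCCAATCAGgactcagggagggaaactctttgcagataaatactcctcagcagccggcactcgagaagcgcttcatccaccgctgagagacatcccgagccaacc
Gbp5: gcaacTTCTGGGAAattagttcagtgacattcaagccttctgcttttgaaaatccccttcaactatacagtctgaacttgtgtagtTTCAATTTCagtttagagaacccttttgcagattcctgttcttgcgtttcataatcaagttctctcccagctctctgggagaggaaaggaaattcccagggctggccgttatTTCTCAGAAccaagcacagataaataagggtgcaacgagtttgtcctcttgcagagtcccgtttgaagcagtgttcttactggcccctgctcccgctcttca

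The Y box was found in 3 of the 5 called MHC class II genes with a promoter entry (60.0%), against 4.10% of all 32851 promoters. Among the 8 called interferon gamma genes with an entry, 5 held the interferon response core (62.5%, against 8.56% of all), 3 the gamma-activated element (37.5%, against 8.30%) and 4 the Y box (50%). Of the 10 called antimicrobial genes with an entry, 0 held the Y box, 1 the interferon response core and 1 the gamma-activated element. A match of letters is a description of these windows, and binding was not measured.

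Lymphocyte genes were higher after 3 cycles, those of antibody-secreting cells included. The 31 probe sets annotated to immunoglobulin chains included 30 that were higher and 0 that were lower, with a median of 2.29, and 18 were still called with the array sets, with a median of 2.14. Many of these probe sets share sequence, so they are not independent. Igha, the heavy chain of IgA, read 11.48, 10.67, 11.87, 11.65 and 11.08 after 3 cycles and 9.35, 7.93, 7.96, 7.94 and 8.03 in controls, where A1 was the highest control and still below every treated mouse. Its change was 3.11 ± 0.37 (adjusted p = 8.44e-06).

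Plasma cell genes outside the immunoglobulin loci were 6 higher of 14, 0 lower, with a median of 0.55. Derl3, which removes misfolded proteins from the endoplasmic reticulum, read 7.95, 7.85, 8.09, 8.61 and 8.46 in F1, F3, F5, G2 and G3, against 6.48, 6.73, 6.33, 6.27 and 6.70 in controls. The spread within either group was small beside the change of 1.69 ± 0.17 (adjusted p = 1.68e-06). Jchain, which joins IgA into dimers, rose by 1.78 ± 0.22 (adjusted p = 1.27e-05), and the transcription factors Irf4 and Prdm1, which drive plasma cell differentiation, by 1.34 ± 0.15 and 1.21 ± 0.18 (adjusted p = 3.14e-06 and 9.12e-05). All 4 were called with the array sets too. Mzb1, a chaperone for antibody assembly, and Tnfrsf17, the survival receptor BCMA, rose by 1.27 ± 0.19 and 1.04 ± 0.13 (adjusted p = 8.3e-05 and 9.95e-06), but were at 1.05 and 0.94 and not called with the array sets, and Tnfrsf17 was not called without G2, A1 or A5. The 8 other members did not pass, at 0.14 to 0.59, among them Xbp1, the regulator of the secretory programme, with 0.27, and Sdc1, the surface marker CD138, with 0.14.

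B cell genes gave 11 higher of 22 and 0 lower, with all 22 positive and a median of 0.97. Cd79b, a signalling chain of the B cell receptor, read 7.68, 8.71, 8.24, 9.57 and 8.86 after 3 cycles and 6.85, 7.49, 6.56, 6.30 and 7.60 in controls, a change of 1.65 ± 0.36 (adjusted p = 0.00265). F1 exceeded the highest control only narrowly. Ms4a1, which encodes CD20, and Cr2, a complement receptor of B cells and follicular dendritic cells, rose by 1.42 ± 0.46 and 1.30 ± 0.40 (adjusted p = 0.0335 and 0.0249), but their groups overlapped, through F1 in both, and neither was called without F3, G2, A1 or L1 (G3 and A5 too for Ms4a1). The B cell list therefore leaned on single mice. Its mean level was 6.37 in F1 and 7.81 in G2, with 5.71 to 6.34 in controls, and the count of genes higher was 5 without G2 and 16 without F1. Follicle genes followed: Ccl19 and Cxcl13, chemokines that organise lymphoid tissue, rose by 1.28 ± 0.28 and 1.10 ± 0.33 (adjusted p = 0.00247 and 0.0203), and with Ltb, a lymphotoxin chain, they made up 3 of 17 genes. Without G2 the count was 1, Cxcl13 being at 0.92. In the fit with the array sets 0 genes of both lists were called, with medians of 1.04 and 0.70.

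T and NK cell genes were positive in all 26 cases, with 6 higher, 0 lower and a median of 0.58. Cd4, the co-receptor of helper T cells, read 7.00, 7.38, 7.45, 7.78 and 7.38 after 3 cycles and 6.09, 6.23, 5.86, 5.86 and 6.13 in controls, and changed by 1.36 ± 0.17 (adjusted p = 1.52e-05). Cd3g and Cd3e, chains of the T cell receptor complex, changed by 1.54 ± 0.25 and 1.20 ± 0.19 (adjusted p = 0.000214 and 0.000145), and Icos, a costimulatory receptor, by 1.17 ± 0.20 (adjusted p = 0.000456). The cytotoxic genes Gzmb and Prf1 had changes of 0.55 and 0.13 and did not pass. The called list members counted 4 without G3, and 2 with the array sets, where Cd4 (0.99) and Cd3e (1.06) were not called.

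Myeloid genes were divided. Of 25 monocyte and macrophage genes, 10 were higher and 0 lower, with a median of 0.78. Cybb, the catalytic subunit of the phagocyte oxidase, changed by 1.94 ± 0.38 (adjusted p = 0.00106), Fcgr4, an activating Fc receptor, by 1.58 ± 0.33 (adjusted p = 0.00204), and C1qb, a complement chain made by macrophages, by 1.25 ± 0.22 (adjusted p = 0.000521). Cd163, a scavenger receptor of resident macrophages, was at -0.40. Without G3 the count was 7, and with the array sets 0. Complement added C4b and C3ar1, the receptor for C3a, with 1.51 ± 0.22 and 1.42 ± 0.18 (adjusted p = 9.69e-05 and 1.17e-05), both called with the array sets as well.

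Against 1.09% of all genes, neutrophil genes gave 2 higher of 16. These were Cd177, a surface glycoprotein of neutrophils, with 2.10 ± 0.31 (adjusted p = 0.000101), and Lrg1, a secreted glycoprotein, with 2.11 ± 0.47 (adjusted p = 0.00338). Cd177 was already at 8.47 ± 0.75 in controls (10.57 ± 0.29 after 3 cycles), while the defining genes S100a9, a calgranulin, and Cxcr2, the receptor for neutrophil chemokines, stayed low in most treated mice. Neither Cd177 (1.62) nor Lrg1 (1.93) was called with the array sets. S100a9 read 5.61, 5.65, 5.60, 5.79 and 7.87 in F1, F3, F5, G2 and G3, and 5.22, 5.34, 5.03, 5.23 and 5.11 in controls. The groups did not overlap, G3 alone was far higher, and the change of 0.92 ± 0.48 did not pass (adjusted p = 0.185). In acute colitis, set against the same controls, 12 of the 16 were higher, with a median of 1.89, against 0.50 after 3 cycles.

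Cytokines gave 2 higher of 32, against 1.09% of all genes. The 2 were Ccl8 and Ccl3, chemokines for monocytes and other leukocytes, with 1.66 ± 0.25 and 1.34 ± 0.43 (adjusted p = 0.000125 and 0.0299). Ccl3 was not called without F5, G2, G3, A1, A2 or A5, at 1.27 to 1.34. Il1b and Tnf, the classical inflammatory cytokines, changed by 1.34 ± 0.48 (adjusted p = 0.0551) and 0.98 ± 0.29 (adjusted p = 0.0198), Tnf missing the 2-fold limit. For mast cells, Mcpt2 and Mcpt1, proteases of mucosal mast cells, rose by 1.99 ± 0.52 and 1.47 ± 0.40 (adjusted p = 0.00922 and 0.0114), 2 of 13 genes. Mcpt2 was high in F1, F3 and G2 (6.85, 6.71 and 6.69) and lower in F5 and G3 (5.58 and 5.66), with 4.15 to 4.42 in controls. Cpa3, a carboxypeptidase of mast cells, changed by 0.96 ± 0.18, and Tpsb2, a tryptase of connective tissue mast cells, by 0.40 ± 0.08. With the array sets Ccl8 (1.44), Ccl3 (1.18), Mcpt2 (1.27) and Mcpt1 (0.75) were not called.

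**Figure D3:**
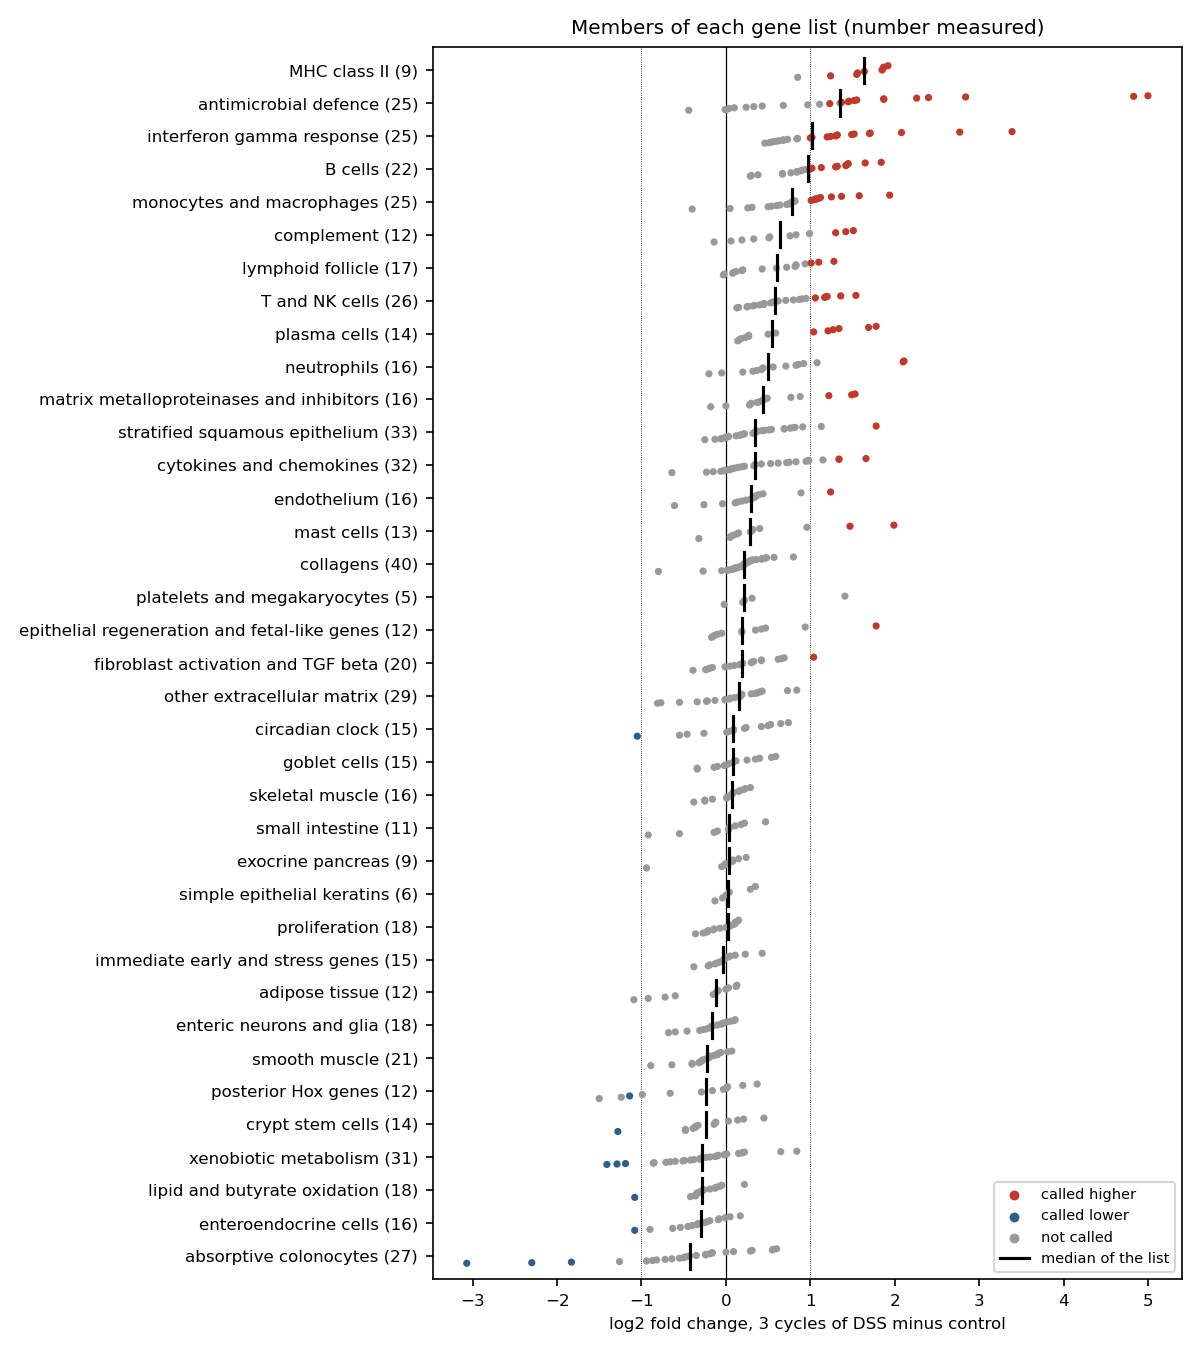
Log2 fold change of each measured member (points) of 37 gene lists in 3 cycles minus control, with the list median (black bars) and dotted lines at a 2-fold change. Immune lists lie to the right, up to a median of 1.64 for MHC class II, and absorptive colonocytes lie furthest to the left, with a median of -0.43.

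Matrix genes changed little in size. None of the 40 collagen genes measured passed the 2-fold limit (0 higher, 0 lower by limma), but by the adjusted p alone 14 were higher and 1 lower, against 8.87% and 10.1% of all genes. Col1a1, a chain of type I collagen, read 9.68, 9.54, 9.61, 9.65 and 9.90 in F1, F3, F5, G2 and G3, against 8.82, 9.30, 9.14, 9.07 and 9.18 in A1, A2, A5, L1 and L2. The mice separated completely although the change was only 0.57 ± 0.11 (adjusted p = 0.00106), or 1.49-fold. Col1a2, its partner chain, and Col4a1, a chain of basement membranes, changed by 0.47 ± 0.09 and 0.48 ± 0.11 (adjusted p = 0.000705 and 0.00365). Col18a1, of vascular and epithelial basement membranes, had the highest value in the list, 0.80 ± 0.11 (adjusted p = 3.18e-05), and Col6a4, a collagen VI chain outside the list, had 0.94 ± 0.09 (adjusted p = 1.68e-06). Col3a1, the type III chain, was at 0.25 ± 0.10 (adjusted p = 0.0948), and Col8a1, a short-chain collagen, was lower, by -0.80 ± 0.19 (adjusted p = 0.00575), with overlapping groups. The median collagen change was 0.22 without and 0.03 with the array sets, and 37 and 24 of the 40 were positive. The chains named from the list moved less. With the array sets Col1a1 was at 0.49, Col1a2 at 0.40, Col4a1 at 0.51, Col18a1 at 0.68, Col3a1 at 0.22 and Col8a1 at -0.85. Of these, only Col18a1 had an adjusted p under 0.05 by limma in that fit (0.0352). The part of the array sets in the collagen changes was not tested.

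Other stromal genes were similar in size. The 29 further matrix genes gave 0 higher and 0 lower, against 1.09% and 0.291% of all genes. By the adjusted p alone, 8 of them were higher and 2 lower, against 8.87% and 10.1% of all genes. Their median change was 0.16, and 0.21 with the array sets. Lox, which cross-links collagen, was at 0.84 ± 0.29 (adjusted p = 0.0465), Postn, a matricellular protein, at -0.55 ± 0.11 (adjusted p = 0.00204), and Tnc, tenascin C, at 0.17 ± 0.17 (adjusted p = 0.54). Grem1, a BMP antagonist secreted by fibroblasts, read 9.56, 9.16, 9.33, 9.37 and 9.82 after 3 cycles and 8.20, 8.56, 8.36, 8.46 and 8.46 in controls. It rose by 1.04 ± 0.19 (adjusted p = 0.000803), and its groups were apart, though it fell short of 2-fold without G3 (0.95) or A1 (0.99). It was the only one called of 20 genes of fibroblast activation and TGF beta signalling. Acta2, the actin of smooth muscle and myofibroblasts, and Vim, vimentin, were at -0.19 ± 0.09 and 0.18 ± 0.14 (adjusted p = 0.142 and 0.391). Vcam1, an endothelial adhesion molecule, rose by 1.24 ± 0.23 (adjusted p = 0.000727). Neither Grem1 (1.05) nor Vcam1 (1.35) was called with the array sets.

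Matrix metalloproteinases gave 3 higher of 16, Mmp13, Mmp3 and Mmp10, which cleave collagens and other matrix proteins, with 1.53 ± 0.47, 1.49 ± 0.49 and 1.22 ± 0.38 (adjusted p = 0.026, 0.037 and 0.0288). G3 was the highest mouse for each, 8.10, 7.82 and 8.02, against 6.34 to 6.86, 5.96 to 6.63 and 6.47 to 6.85 in the other treated mice. Without G3, 0 of the 16 were called, at 1.22, 1.18 and 0.94 for these 3, and with the array sets they were at 2.01, 1.79 and 1.62 and not called. Mmp13 was also not called without A5, Mmp3 without G2 or any 1 of the controls, and Mmp10 without A1, A5 or L1. Timp1, their inhibitor, did not pass (0.77 ± 0.33, adjusted p = 0.111). Of muscle and nerve genes 0 were called by limma. The 21 smooth muscle genes had a median of -0.22, which was 0.07 with the array sets, and the 18 genes of enteric neurons and glia had a median of -0.16, with Snap25, a synaptic protein, at -0.60 ± 0.12 (adjusted p = 0.00179).

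The largest fall with a gene listed was that of Mptx1, mucosal pentraxin, which read 5.68, 9.22, 9.85, 9.06 and 8.02 in F1, F3, F5, G2 and G3, against 11.74, 11.20, 11.63, 11.52 and 11.10 in controls. All treated mice were lower, F1 by far the most, and the change was -3.07 ± 0.69 (adjusted p = 0.00349). Slc37a2, an exchanger of sugar phosphates, and Tgm3, a transglutaminase, fell by 2.30 and 1.83 on the log2 scale (SE 0.46 and 0.61, adjusted p = 0.00132 and 0.0366). For Tgm3, too, F1 was lowest, with 7.59 against 10.40 to 11.43 in the other treated mice, and the gene was not called without F1 (-1.15), G3, A1, A5, L1 or L2. These 3 were the called genes of 27 of absorptive colonocytes, against 0.291% of all genes called lower. The list median was -0.43, against 0.02 over all genes. Slc26a3 and Car2, the chloride exchanger and a carbonic anhydrase of these cells, were lower by less than 2-fold, at -0.94 ± 0.23 and -0.87 ± 0.21 (adjusted p = 0.00604 and 0.00571). Of the 27, 0 were called with the array sets, where Mptx1 was at -3.56, Slc37a2 at -2.43 and Tgm3 at -2.93, and the median was -0.14.

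The fall with the lowest adjusted p was that of Capsl, which encodes a calcium-binding protein. It read 4.59, 4.51, 4.47, 4.82 and 4.54 after 3 cycles and 6.43, 6.15, 6.73, 6.82 and 6.32 in controls, a change of -1.90 ± 0.12 (adjusted p = 2.4e-10) that was -1.89 ± 0.18 with the array sets. Trpm6, a magnesium channel, read 7.00, 7.39, 7.73, 7.73 and 6.72 after 3 cycles and 9.52, 8.94, 9.90, 9.38 and 9.59 in controls, and fell by 2.15 on the log2 scale (SE 0.27, adjusted p = 1.02e-05). In either gene all treated mice lay below all controls. Fxyd4, a regulator of the sodium pump, fell by 1.98 (SE 0.24, adjusted p = 8.3e-06), Cyp2c68, a cytochrome P450, by 1.97 (SE 0.32, adjusted p = 0.000236), Cpm, a carboxypeptidase, by 1.82 (SE 0.21, adjusted p = 6.68e-06), and Klb, a co-receptor for fibroblast growth factors, by 1.49 (SE 0.27, adjusted p = 0.000551). Of these, Trpm6, Fxyd4, Cpm and Klb were also called with the array sets, and Cyp2c68 was not (adjusted p = 0.0522). Naaladl1, a peptidase, and Fut9, a fucosyltransferase, were at -1.93 ± 0.27 and -1.75 ± 0.32 (adjusted p = 4.27e-05 and 0.000728), and the strongest of the many probe sets of Hmcn1, a giant matrix protein, was at -1.47 ± 0.30 (adjusted p = 0.00151). The 76 other probe sets of Hmcn1 ranged between -1.14 and 0.32, and 5 of them were called lower. Fut9 (-1.82) and Hmcn1 (-1.58) lost their calls with the array sets.

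Some metabolic enzymes were called lower, against 0.291% of all genes. Sult1a1 and Sult1c2, sulfotransferases, and Fmo2, a flavin monooxygenase, were the 3 called of 31 genes of xenobiotic metabolism, at -1.19 ± 0.35, -1.29 ± 0.29 and -1.41 ± 0.30 (adjusted p = 0.0175, 0.00318 and 0.00204), and 0 were called with the array sets, where the list median was 0.31, against -0.28 without. Sult1a1 was not called when G3 was left out (-1.04). Ppargc1a, a coactivator of mitochondrial genes, was lower on both of its probe sets, at -1.48 ± 0.26 and -1.08 ± 0.22 (adjusted p = 0.000543 and 0.00179). It was the only one called of 18 genes of lipid and butyrate oxidation. Of these, 17 were negative, and the list median was -0.28, against 0.02 over all genes, and -0.07 with the array sets. Ppargc1a was at -1.07 and not called in that fit.

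Among other epithelial lineages, Lgr5, the receptor that marks crypt stem cells, read 6.78, 5.95, 6.31, 6.78 and 7.07 after 3 cycles and 8.0, 7.70, 7.99, 7.86 and 7.74 in controls. The groups were apart and the change was -1.28 ± 0.28 (adjusted p = 0.00269). Of 14 stem cell genes it was the only one called, against 0.291% of all genes called lower. With the array sets it was at -0.91 and not called. Axin2, another Wnt target, was at -0.48 ± 0.10 (adjusted p = 0.00249), and Olfm4 at 0.14. Insl5, a hormone of colonic endocrine cells, was at -1.08 ± 0.33 (adjusted p = 0.0228), 1 of 16 endocrine genes, not called without F1, G3 or A1, and Chga, chromogranin A, at -0.63 ± 0.16 (adjusted p = 0.00631). Goblet cell genes gave 0 higher and 0 lower of 15, with a median of 0.08, and proliferation genes 0 and 0 of 18, where Mki67 was at -0.22 ± 0.15 (adjusted p = 0.322). Counts of 0 in lists of this length are near the 1.09% and 0.291% of all genes. Hoxd10, a homeobox gene of the distal gut, was at -1.14 ± 0.31 (adjusted p = 0.0116), 1 of 12 posterior Hox genes, against 0.291% of all genes called lower. The lowest change in the list was -1.50 and did not pass. Hoxd13 was called when G2 or G3 was left out, at -1.86 to -1.76. F1 had the lowest mean of that list, 6.24 against 6.59 to 6.99 in the other treated mice and 7.06 to 7.24 in controls, and Hoxd10 was at -0.84 and not called without F1. Arntl, a core gene of the circadian clock, was called lower (-1.05 ± 0.30, adjusted p = 0.0171) with overlapping groups. It read 6.97 in control A1 and 8.11 to 8.33 in the other controls, while Dbp, a clock output gene that peaks at another time of day, read 9.83 in A1 and 7.19 to 7.85 in the others. Arntl was not called without F1, F3, A5 or L1, at -0.97 to -0.93. Insl5 (-1.62), Hoxd10 (-1.10) and Arntl (-1.50) were not called with the array sets.

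Among the 10 mice compared, squamous genes marked 1. Krt5, a basal keratin of stratified epithelium, read 10.91 in G3, against 5.75 to 5.85 in the other treated mice and 5.48 to 5.91 in controls, and its change of 1.13 ± 0.90 did not pass (adjusted p = 0.405). Krt13 and Krt14 read 9.08 and 9.85 in G3. The mean of the 33 squamous genes was 7.01 in G3, 5.72 to 5.81 in the other treated mice and 5.57 to 5.72 in controls. In the recovery group the mean of this list was 7.60. Set against the same controls, 24 of the 33 were higher there, with a median of 1.81. Only Sprr1a, a cornified envelope protein, was called, at 1.78 ± 0.41 (adjusted p = 0.00381), and it read 8.41 to 10.02 in treated mice and 7.06 to 8.41 in controls, where A2 reached the level of F5. At 1.68 it was not called with the array sets. The platelet chemokine gene Ppbp read 10.79 in G3 and 5.11 to 5.94 in the other treated mice. G3 also had the highest mean of the neutrophil list (7.12) and of the interferon gamma list (8.53). Whether squamous tissue in that sample has a part in these values was not tested.

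**Figure D4:**
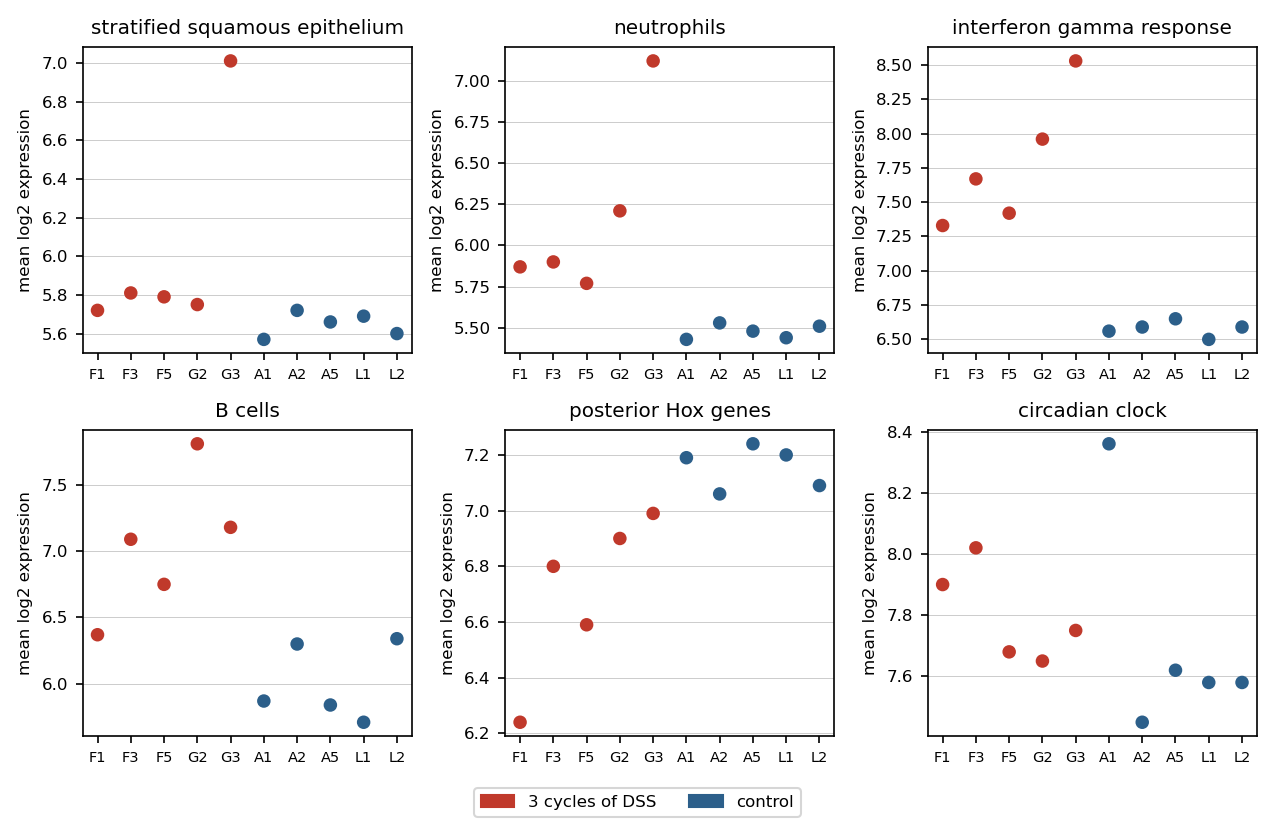
Mean log2 expression of the measured members of 6 gene lists in each mouse, with the 5 mice after 3 cycles of DSS left of the 5 controls (no error bars, 1 value per mouse). G3 is high for squamous, neutrophil and interferon gamma genes, F1 low for B cell and Hox genes, and control A1 high for clock genes (8.36).

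Set directly against the other numbers of cycles, 3 cycles gave few calls. Later cycles used a higher DSS percentage, so in the contrast with 1 cycle the number of cycles and the dose cannot be told apart. Against 2 cycles, limma called 0 probe sets (0%), with 4155 at an unadjusted p under 0.05. Against 2 cycles with additional recovery it also called 0 (0%), with 2552 at an unadjusted p under 0.05, but 79 without M5 of the recovery group, 37 without G3 and 29 without N2 of recovery. Against 1 cycle, 43 probe sets were called (0.121%), 26 higher and 17 lower, and 19 without J5 of the 1 cycle group, 27 without F3 and 28 without G3. Of these 43, 38 had no gene listed. The 43 include 10598085, which defines the array sets, so its call there was fixed in advance. All 3 cycles arrays and all 1 cycle arrays lie apart in the array sets. Between these sets 32 of the 43 were also called, against 33 higher and 31 lower in the high set over all 35511 probe sets. With the array sets in the model 0 were called, and 6560 probe sets had an unadjusted p under 0.05 without them.

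Only 4 of the 43 carried 1 gene symbol. Gpnmb, a membrane glycoprotein of macrophages, averaged 8.10 ± 0.29 after 3 cycles and 7.00 ± 0.21 after 1 cycle (SD, n = 5 each), a difference of 1.10 (SE 0.21, adjusted p = 0.0128). With the array sets it was 0.82 and no longer called, and between the array sets Gpnmb differed by 0.28. Set against the shared controls, Gpnmb stood at 1.04 after 1 cycle, 1.67 after 2 cycles, 2.14 after 3 cycles and 2.13 after recovery. Tns1, AY036118 and Usp17ld differed by 1.08, 1.40 and 1.33 between 3 cycles and 1 cycle, and by 1.09, 1.68 and 1.45 between the array sets. The probe set of Tns1 that was called rose by 1.23 ± 0.23 over controls, but by 0.14 with the array sets, while its 5 other probe sets lay between -0.20 and 0.13.

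**Figure D5:**
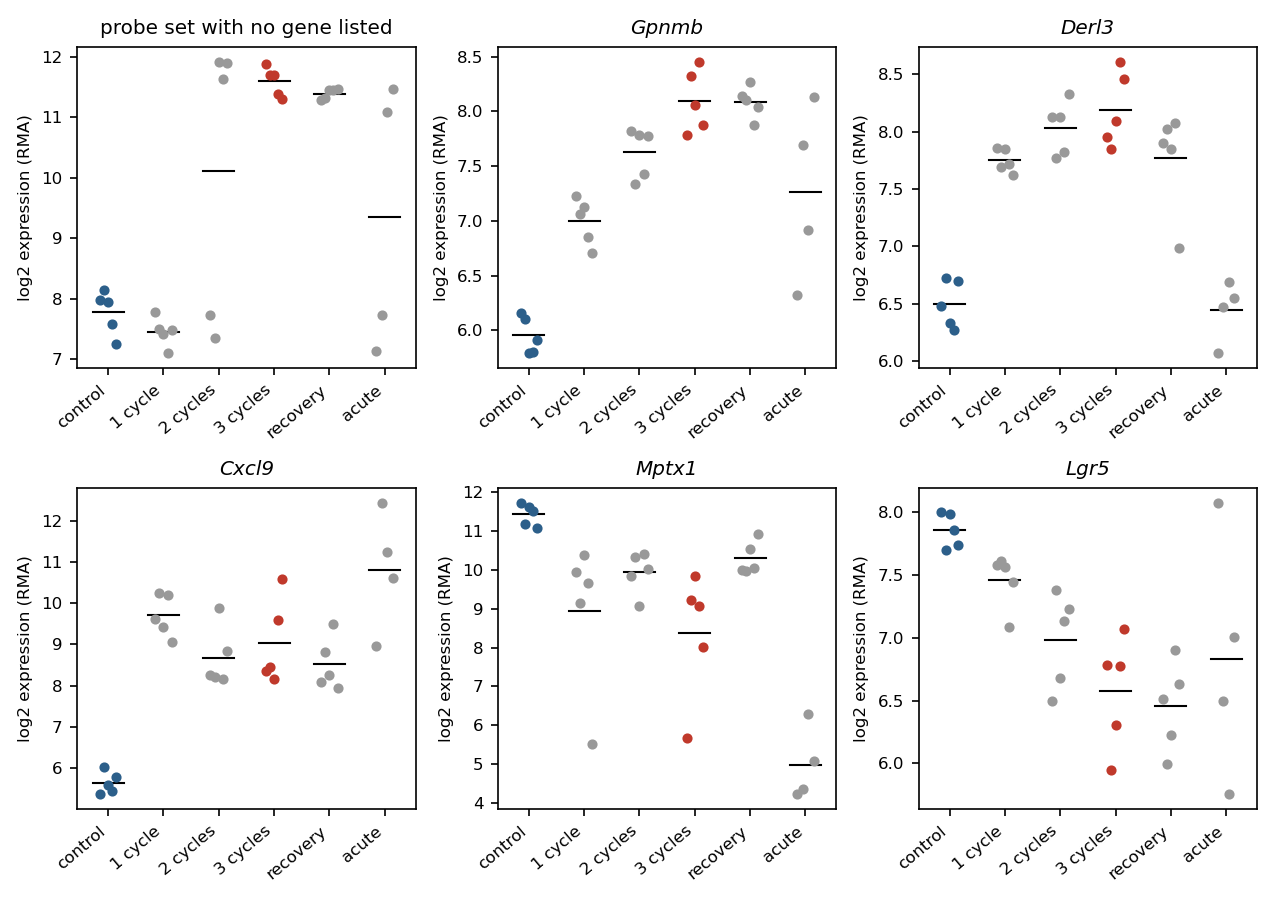
Log2 expression in every mouse (points) with group means (bars) for 10598085, the probe set with no gene listed that splits the arrays, and for 5 genes, over control, 1, 2 and 3 cycles of DSS, recovery and acute colitis (n = 5, 4 for acute colitis). 10598085 is low in control and 1 cycle, high in 3 cycles and recovery and split in the others, while Gpnmb is highest after 3 cycles (8.10) and recovery.

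The same genes can be followed through the other groups, all set against the same controls, which makes these values dependent on each other. Cxcl9 stood at 4.07 after 1 cycle, 3.03 after 2 cycles, 3.39 after 3 cycles, 2.88 after recovery and 5.16 in acute colitis. Jchain had 1.75, 1.96, 1.78, 1.74 and -1.48 in that order, and Derl3 1.25, 1.53, 1.69, 1.26 and -0.06. Both were thus above controls in each group that had time to recover, and not in acute colitis, where 2 of the 14 plasma cell genes were higher and 1 was lower. Mptx1 had -2.50 after 1 cycle, -1.50 after 2 cycles, -3.07 after 3 cycles, -1.13 after recovery and -6.45 in acute colitis. Lgr5 had -0.40, -0.87, -1.28, -1.40 and -1.02 in the same order. None of these 5 genes was called where 3 cycles was set directly against 1 cycle, 2 cycles or recovery by limma, and the difference from acute colitis was not tested.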

How the data were processed

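Expression was measured in 29 colon samples, 1 mouse and 1 array each. The authors deposited log2 values, 1 for each probe set of each array, which they had made with RMA (R 2.12.2). No probe signal or background level was used here, so the number of arrays limits the precision. Symbols come from the platform annotation: 21789 of 35511 probe sets carry 1 symbol, 1621 several and 12101 none. Of the value columns, 0 were left out.

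Groups were compared with limma 3.58.1 in R 4.3.3, in 1 fit of all 6 groups, with Benjamini-Hochberg adjustment over all probe sets. Probe sets count as called at an adjusted p below 0.05 with a change above 2-fold. Levels and changes are log2, with SD between mice or SE of the fit. Listed genes are represented by their brightest probe set. Lists carry no test of their own and are described by counts and medians. The members, lists and gene rule (the 20 largest rises and falls with separate groups, up to 6 members per list, and the genes of direct contrasts) were chosen with earlier results of these data known. Further genes and probe sets were named after their values were seen. The array sets are defined by probe set 10598085, below or above 10. The limma step was tested on simulated data. Promoters were matched by symbol to RefSeq sequences of GRCm38.p6.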

Additional observations from a re-analysis of the deposited data

Results flagged for a closer look

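In groups of 5 mice, single values were set against Dixon's limit for the gap to the nearest of the others. Of 334 values looked at, that is each named gene and each list mean in either group, 32 exceeded it. Chance gives about 1 in 20, but some of these genes were named because 1 mouse stood apart, so the 2 shares cannot be compared. These counts were uneven: 16 came from G3, 2 each from F1 and F3, 1 from F5, 7 from control A1 and 2 each from controls A2 and L2.

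In G3 the squamous list mean was 7.01, beside 5.72 to 5.81 in the other mice after 3 cycles. The squamous keratins Krt5 at 10.91, Krt13 at 9.08 and Krt14 at 9.85 stood apart there. Dapl1 at 8.67 and the platelet chemokine gene Ppbp at 10.79 stood apart as well. So did inflammatory genes, with Cxcl10 at 8.49, S100a9 at 7.87, Cxcr2 at 6.38, Il1b at 8.29, Mmp10 at 8.02 and Timp1 at 6.81. The list means of platelets (7.17), metalloproteinases (7.64) and collagens (7.17) were also high there, and Tns1 read 8.62. The platelet list has 5 measured genes. Ppbp changed by 1.41 against control and the others by -0.02 to 0.31. Squamous genes are not part of the colonic mucosa, and whether their source has a part in the other values of G3 was not tested.

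F1 was low for Tgm3 (7.59) and Hoxb13 (6.36), beside 10.40 to 11.43 and 8.88 to 9.63 in the other mice. F3 was high for Postn (10.52) and low for the proliferation list mean (7.57), and F5 was low for Duox2 (9.70).

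Among controls, A1 was low for Plet1 (5.70), Mmp3 (4.78), Arntl (6.97) and the goblet cell list mean (10.10), and high for Ciart (7.92), Dbp (9.83) and the clock list mean (8.36), beside 7.45 to 7.62 in the other controls. A2 read 6.92 for Casq2 and 9.25 for Mki67, and L2 read 4.99 for Timp1 and 5.78 for the pancreas list mean.

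The direct contrast of 3 cycles with 1 cycle gave differences by limma for Gpnmb (1.10, adjusted p = 0.0128), Tns1 (1.08, adjusted p = 0.0205), AY036118 (1.40, adjusted p = 0.0262) and Usp17ld (1.33, adjusted p = 0.0255).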

How the results depend on the processing

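With the array sets in the model, 110 probe sets were higher and 33 lower in 3 cycles against control, instead of 363 and 212, and 0 instead of 43 were called against 1 cycle. In that fit Myh11 (0.18), Car1 (0.48), Krt8 (-0.03), AY036118 (-0.10) and Usp17ld (-0.08) changed sign, of which the last 2 had been called. Leaving out dim probe sets, with a mean under 6, gave 92 lower. Testing only annotated probe sets gave 71 lower and 5 against 1 cycle, since 142 of the 212 falls and 38 of the 43 calls against 1 cycle carry no symbol. Against 2 cycles, array weights gave 1 call. Against recovery, centring gave 4, array weights 10, the label letter as a random block 25, testing only annotated probe sets 18 and a further quantile normalization 4, and the cause was not tested. Leaving out 1 array at a time gave 293 to 435 higher and 137 to 268 lower against control, both lowest without G3, 0 to 0 against 2 cycles, 19 to 52 against 1 cycle (19 without J5, 27 without F3, 28 without G3) and 0 to 79 against recovery (1 without F1, 29 without N2, 37 without G3, 79 without M5). Under the same settings Car1 lay between -0.32 and 0.08 and Krt14 between -0.15 and 0.77, both with the sign turned without G3, and Muc2 between -0.02 and 0.18, with the sign turned without control A1. Of 129 named genes, some of which were not called to begin with, 63 were no longer called with the array sets and 1 was called only there. Under the other planned settings that kept all arrays, at most 4 genes changed their call and 0 their direction. Fits of only the high arrays, added after the data were seen, called 0 against 2 cycles and against recovery. The numbers in the mouse labels recur between groups under other letters, also within a group, so they pair no mice. With that number as a replicate block, also added later, 339 were higher and 199 lower against control, 27 were called against 1 cycle and 0 against 2 cycles and recovery, while 9 named genes lost their call and 1 gained one.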
